A study of Rattus norvegicus with 18 samples.

Results

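Thyroid hormone carriers, a deiodinase, a transporter, both receptors and a receptor target gene were followed in the liver of BarNa rats, a rat model of non-alcoholic steatohepatitis (NASH). The 7 genes, of 32623 in the tables, were taken by symbol: Serpina7 (ENSRNOG00000011081), Ttr (ENSRNOG00000016275), Dio1 (ENSRNOG00000061237), Slc16a10 (ENSRNOG00000000588), Thra (ENSRNOG00000009066), Thrb (ENSRNOG00000006649) and Klf9 (ENSRNOG00000014215). They had been picked with results of these livers known, Serpina7 for its high level in NASH, so their differences between groups are given as descriptions and carry no p-value.

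RNA was sequenced from the liver of 18 male Wistar rats, 1 library per rat, in 3 groups of 6. Control rats received standard chow and plain drinking water for 12 weeks. NASH rats inhaled carbon tetrachloride (CCl4), a liver toxin, with phenobarbital in their water for 6 weeks and then ate a high-fat, high-cholesterol diet (HFCD) for 4 weeks, 10 weeks in all. NASH-CH rats, the model with cirrhosis, had 8 weeks of CCl4 and phenobarbital and then 16 weeks of HFCD with both agents continued, 24 weeks in all. Phenobarbital, CCl4, diet, age and duration therefore changed together between the groups and cannot be told apart. Rats were housed in pairs, and the tissue was whole liver with no sorting of cells.

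Thyroxine (T4), the main product of the thyroid, travels in plasma bound to thyroxine-binding globulin (Serpina7), transthyretin (Ttr) and albumin, all made by hepatocytes. Transporters such as MCT10 (Slc16a10) move the hormone through the cell membrane, and type 1 deiodinase (Dio1), a selenoenzyme abundant in liver and kidney, converts T4 to the active T3. T3 binds the nuclear receptors TRα (Thra) and TRβ (Thrb, the main hepatic form), which pair with retinoid X receptors and exchange corepressors for coactivators on target genes such as Klf9, a Krüppel-like transcription factor that also responds to glucocorticoids.

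Library totals, in units of 1e6 counts, were 19.5 to 27.2 for control, 20.8 to 29.5 for NASH and 44.7 to 60.1 for NASH-CH rats, so every NASH-CH library was deeper than every other one. Of the 6 hepatocyte markers, Cyp2e1 was called higher and Apoa1 lower in both NASH groups against control (limma-voom, adjusted p under 0.05). Alb was also called lower in NASH-CH. The summed level of the 6 ran from 96900 to 137000 CPM in control, 63800 to 101000 in NASH and 46000 to 97800 in NASH-CH (CPM, counts per 1e6 counts of the library after TMM scaling). Most of this sum was Alb, with 131600 of 137000 CPM in control rat 1 and 41370 of 46000 CPM in NASH-CH rat 5. NASH-CH rat 5 stood apart, with the lowest hepatocyte sum and a cholangiocyte marker sum of 45.6 CPM against 4.87 to 13.2 in the other 5 rats of its group. Of the markers of other cell types, Lrat (stellate cells) was lower in both NASH groups, and Col1a1 and Des were higher in NASH-CH. Of 5 macrophage marker transcripts, 1 was lower in NASH (Marco) and 4 in NASH-CH (Marco, Cd163, Clec4f and Cd5l). Of all genes, 1.54% and 8.60% were called lower. By staining, the study counted more CD68-positive and CD163-positive macrophages in NASH-CH than in control livers, so for Cd163 RNA and stained cells went opposite ways. Vwf of the endothelium was higher in NASH-CH. Summed lymphocyte markers ran from 6.79 to 13.5 CPM for control, 8.96 to 13.1 for NASH and 10.6 to 22.8 for NASH-CH, with rat 5 at the top. Control rat 6 had the lowest Ttr and Dio1 and the highest Slc16a10 and Klf9 of the controls, far from the others for Slc16a10. NASH-CH rat 5 also had the lowest Slc16a10, Thrb and Klf9 of its group. Log2 differences without 1 or both of these rats are given for Serpina7, Ttr, Dio1, Slc16a10 and Klf9, not for every comparison.

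The start-site windows of Serpina7, Slc16a10 and Thrb are shown because each holds a match to one of the motifs searched, which the windows of Ttr, Dio1, Thra and Klf9 do not. RefSeq (assembly GRCr8) held windows of 250 bases before to 50 bases after the start site for 7 of 7 genes, 8 windows in all since Thra has 2, matched by symbol. Each sequence is written 5′ to 3′ on the strand of its gene, with motif matches in capitals, and positions count the first transcribed base as 1.
Serpina7, chrX:107457632-107457931, minus strand: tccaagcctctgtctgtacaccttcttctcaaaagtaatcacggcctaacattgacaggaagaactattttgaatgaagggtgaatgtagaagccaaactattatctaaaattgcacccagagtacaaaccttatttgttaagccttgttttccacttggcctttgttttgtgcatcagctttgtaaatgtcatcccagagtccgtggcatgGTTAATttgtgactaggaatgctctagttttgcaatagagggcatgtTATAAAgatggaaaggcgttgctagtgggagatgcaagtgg
Slc16a10, chr20:45122309-45122608, minus strand: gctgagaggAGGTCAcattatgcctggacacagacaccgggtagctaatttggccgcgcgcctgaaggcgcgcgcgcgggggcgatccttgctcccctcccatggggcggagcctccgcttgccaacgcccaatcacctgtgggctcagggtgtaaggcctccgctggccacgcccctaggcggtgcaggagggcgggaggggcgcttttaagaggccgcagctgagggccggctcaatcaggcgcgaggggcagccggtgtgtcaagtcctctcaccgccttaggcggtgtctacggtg
Thrb, chr15:10461397-10461696, minus strand: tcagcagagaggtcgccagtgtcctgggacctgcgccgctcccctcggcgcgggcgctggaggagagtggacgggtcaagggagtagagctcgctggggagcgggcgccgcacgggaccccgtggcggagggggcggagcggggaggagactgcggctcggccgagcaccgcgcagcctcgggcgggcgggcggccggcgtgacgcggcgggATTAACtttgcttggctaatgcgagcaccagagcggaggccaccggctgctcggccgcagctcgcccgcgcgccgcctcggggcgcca

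Capitals in the Serpina7 window mark GTTAAT, a half-site of the hepatocyte factor HNF1, at −38 to −33, and a TATAAA motif at 10 to 15. The Thrb window holds the same HNF1 half-site on the other strand, also at −38 to −33. Capitals in the Slc16a10 window mark AGGTCA, the half-site that thyroid hormone receptors bind, at −241 to −236. Searched on both strands over all 33469 windows of the table, GTTAAT was found in 7.45% (2 of the 8 windows of these genes), AGGTCA in 16.2% (1 of 8) and TATAAA in 14.2% (1 of 8). The direct repeat of AGGTCA with a spacer of 4 bases was in 0.00598% of windows and in 0 of the 8. GC content was 41% for Serpina7, 67.7% for Slc16a10 and 76% for Thrb, against a median of 51.7% over all windows. A match is a description of the letters only.

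Serpina7, the carrier with the highest affinity for T4, was low in control liver and much higher in both NASH groups. Its level was lowest at 0.561, median 1.28 and highest at 2.29 CPM in control rats (9 to 64 counts). In NASH rats it was 5.15, 15.6 and 20.9 CPM (163 to 526 counts), and in NASH-CH rats 12.6, 17.1 and 34.3 CPM (627 to 2643 counts). Every NASH and every NASH-CH rat lay above every control rat, while the 2 diseased groups overlapped, with 2 of 6 NASH-CH rats above all NASH rats. Group means were 1.47 ± 0.684, 14.5 ± 5.86 and 20.6 ± 8.80 CPM (SD, n = 6 each). The fitted log2 fold change was 3.18 (SE 0.513) in NASH and 3.73 (SE 0.508) in NASH-CH, or 9.09-fold and 13.2-fold, the 8th and 18th highest of 12904 genes tested. NASH-CH exceeded NASH by 0.54 (SE 0.306) on the log2 scale, and the rats of these groups overlapped. NASH-CH rat 5 had the highest value of all, and without it the NASH-CH difference from control was 3.57 (SE 0.475).

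**Figure D1:**
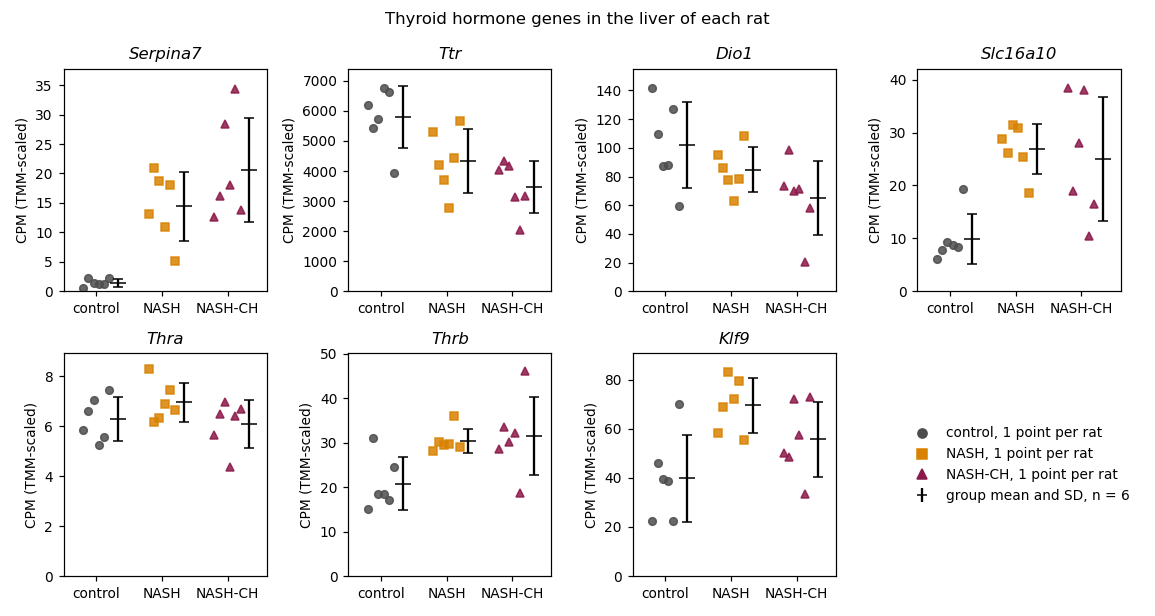
TMM-scaled CPM of each of the 7 genes (vertical axes from 0) in every rat of the control, NASH and NASH-CH groups, 1 point per rat, with the group mean and SD (n = 6) at the side. Serpina7 is the only one of the 7 whose control rats (up to 2.29 CPM) lie below all rats of both NASH groups.

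Ttr, the carrier of T4 and, with retinol-binding protein, of vitamin A, was lower in the diseased livers. It ranged from 3945 through a median of 5969 to 6749 CPM in control, from 2755 through 4307 to 5678 in NASH and from 2025 through 3602 to 4329 in NASH-CH. Of the control rats, 5 lay between 5434 and 6749 CPM, above all NASH-CH rats, and control rat 6 at 3945 CPM was the exception. Means were 5783 ± 1033, 4340 ± 1066 and 3474 ± 873 CPM (SD, n = 6). The log2 difference from control was −0.44 (SE 0.201) in NASH and −0.76 (SE 0.204) in NASH-CH. Without control rat 6 and NASH-CH rat 5 these were −0.53 (SE 0.164) and −0.72 (SE 0.174). The summed level of the hepatocyte markers, most of it Alb, was lower in the same groups, and its part in the Ttr difference was not tested. In whole liver, fewer hepatocytes and less RNA per hepatocyte cannot be told apart.

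Dio1, the deiodinase that makes T3 from T4, had its lowest values in NASH-CH. It ran from 59.2 through 99.0 to 141.8 CPM in control, from 62.8 through 82.0 to 108.3 in NASH and from 20.1 through 70.7 to 98.3 in NASH-CH. No NASH rat lay below the lowest control, and 2 NASH-CH rats did. Means were 102.2 ± 29.9, 84.7 ± 15.7 and 65.2 ± 25.7 CPM (SD, n = 6). The log2 difference from control was −0.25 (SE 0.278) in NASH, smaller than its SE, and −0.72 (SE 0.285) in NASH-CH. NASH-CH rat 5, with 20.1 CPM, was the lowest of all, and the NASH-CH difference was −0.43 (SE 0.196) without it, −0.86 (SE 0.284) without control rat 6 and −0.57 (SE 0.168) without both. Dio1 and Ttr levels followed each other over the 18 rats (Pearson r = 0.862 on log2 CPM, and 0.835 for deviations from the group means), a description over rats that share their libraries and tissue composition.

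Slc16a10, a transporter of aromatic amino acids and thyroid hormones, was higher in both NASH groups. Its level ran from 6.11 through 8.57 to 19.3 CPM in control, from 18.6 through 27.4 to 31.4 in NASH and from 10.4 through 23.4 to 38.4 in NASH-CH. Control rat 6 held the 19.3 CPM and the other 5 control rats did not exceed 9.24 CPM, below all 12 diseased rats. Means were 9.94 ± 4.71, 26.9 ± 4.70 and 25.0 ± 11.7 CPM (SD, n = 6). The log2 difference from control was 1.48 (SE 0.304) in NASH and 1.27 (SE 0.306) in NASH-CH, and became 1.71 (SE 0.296) and 1.50 (SE 0.298) without control rat 6. The 2 diseased groups did not differ beyond their spread (−0.22, SE 0.283).

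Thrb, the receptor that carries most of the response to T3 in liver, was moderately higher in the diseased livers. It ran from 15.0 through 18.5 to 31.1 CPM in control, from 28.2 through 29.6 to 35.9 in NASH and from 18.7 through 31.2 to 46.2 in NASH-CH. Control rat 2 (31.1 CPM) lay inside the NASH range, and the other 5 control rats were below all NASH rats. Means were 20.8 ± 5.98, 30.4 ± 2.79 and 31.5 ± 8.86 CPM (SD, n = 6), with log2 differences from control of 0.58 (SE 0.178) and 0.59 (SE 0.182). NASH-CH and NASH differed by 0.02 (SE 0.179).

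Thra, the other receptor gene, was flat. It ran from 5.25 through 6.23 to 7.46 CPM in control, from 6.17 through 6.76 to 8.29 in NASH and from 4.37 through 6.46 to 6.96 in NASH-CH, and all 3 groups overlapped. The log2 difference from control was 0.14 (SE 0.131) in NASH and −0.06 (SE 0.124) in NASH-CH, and under scaling by library size alone, which put the median of all genes at 0.229 and 0.268 in place of 0.0072 and 0.0127, these were 0.37 and 0.20, the second with its sign turned. Thra overlaps Nr1d1, which is read from the opposite strand, the use of strand in counting was not given in the sources used here, and Thra was the one gene of the 7 with fractional expected counts in 18 of 18 rats, so its level is uncertain. Of the summed Thra and Thrb counts, Thra made up 23.9% ± 3.95 in control livers, against 18.6% ± 2.11 with NASH and 16.9% ± 4.90 with NASH-CH (SD, n = 6), a share that also depends on the unequal lengths of the transcripts and is given as a change within one pair of genes only. Control rat 2, at 17.5%, and NASH-CH rat 5, at 25.5%, lay on the far side of their groups.

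**Figure D2:**
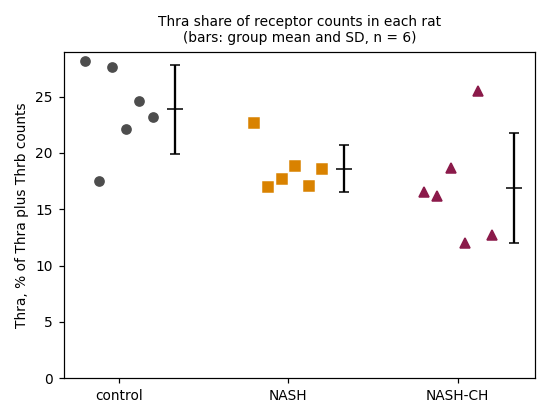
Share of Thra in the summed expected counts of Thra and Thrb (percent, axis from 0) in each rat by group, 1 point per rat, with the group mean and SD (n = 6). In control, 5 of 6 rats lie between 22.1% and 28.2%, 5 of 6 NASH rats between 17% and 18.8%, and the NASH-CH rats spread from 12% to 25.5%.

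Klf9, a receptor target gene, was higher in NASH, with a smaller difference from control in NASH-CH. It ran from 22.4 through 39.1 to 70.1 CPM in control, from 55.2 through 70.4 to 83.2 in NASH and from 33.4 through 53.8 to 73.0 in NASH-CH. Control rat 6 held the 70.1 CPM, and the other 5 controls, up to 46.1 CPM, lay below all NASH rats. Means were 39.9 ± 17.7, 69.5 ± 11.2 and 55.7 ± 15.2 CPM (SD, n = 6). The log2 difference from control was 0.90 (SE 0.242) in NASH and 0.56 (SE 0.249) in NASH-CH, and became 1.08 (SE 0.212) and 0.74 (SE 0.218) without control rat 6. NASH-CH against NASH was −0.35 (SE 0.255), and the rats of these groups overlapped.

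In the fit over all genes, the call (limma-voom, adjusted p under 0.05) was made for 3 of the 7 genes in NASH (Serpina7, Slc16a10 and Klf9, all higher), where 3.12% of 12904 genes were called (1.58% higher and 1.54% lower). In NASH-CH it was made for 4 of the 7 (Serpina7, Slc16a10 and Thrb higher, Ttr lower), where 17.0% were called (8.38% higher and 8.60% lower). Nothing is read from these counts, since the genes had been chosen from the same livers. Groups did not overlap for 1 of the 7 in either comparison with control (Serpina7), beside 3.16% of all genes in NASH (1.77% higher, 1.39% lower) and 7.11% in NASH-CH (3.64% higher, 3.46% lower). NASH-CH against NASH gave 0 calls of 7 with limma, edgeR or DESeq2, and 0 at an unadjusted p under 0.05, beside 4.20% of all genes called (1.81% higher, 2.39% lower). The rats of NASH-CH and NASH overlapped for all 7 genes, and did not for 3.46% of all genes (1.36% higher, 2.10% lower). The median log2 difference of the 7 was 0.576 in NASH and 0.558 in NASH-CH, against 0.0072 and 0.0127 over all genes. Both comparisons use the same 6 control rats. The Klf9 call in NASH was kept in 5 of 18 fits when rats were left out one by one and was not made by edgeR, with no filter on low counts or with the 2 groups fitted alone. The Thrb call in NASH-CH was kept in 11 of 18 and not made with the 2 groups fitted alone.

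**Figure D3:**
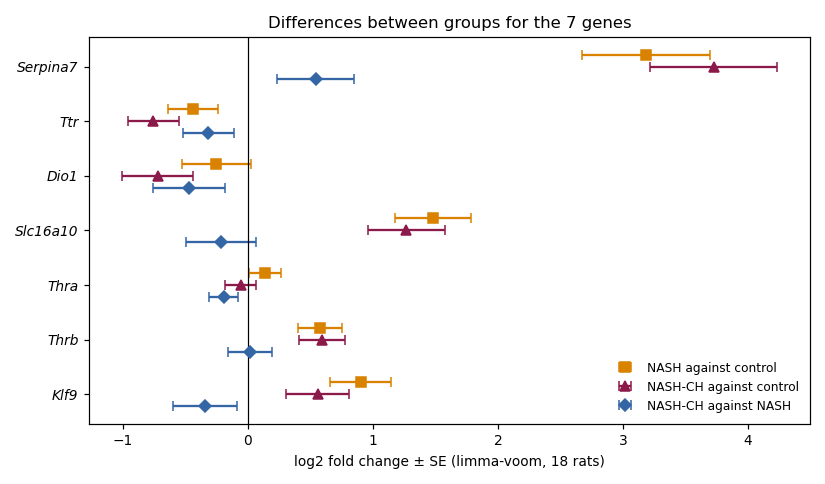
Fitted log2 fold change with its SE (limma-voom, 18 rats) of the 7 genes for NASH against control, NASH-CH against control and NASH-CH against NASH. Serpina7 lies at 3.18 and 3.73 in the comparisons with control, Slc16a10 at 1.48 and 1.27, and Ttr and Dio1 lie below 0 in all 3 comparisons.

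Thrb and Klf9 were highest, among controls, in the same 2 animals, control rats 2 and 6. Their levels followed each other over the 18 rats (r = 0.825, and 0.751 for deviations from the group means). Nr1d1, a repressor of the circadian clock, was looked at after its values were seen. It stood at 29.4 and 56.3 CPM in control rats 2 and 6 and at 0.942 to 2.68 CPM in the other 4 controls. All NASH rats (15.4 to 47.2 CPM) and NASH-CH rats (13.9 to 47.0 CPM) lay above those 4 controls, and control rat 6 lay above every diseased rat. Nr1d1 was not called in NASH (log2 2.30, SE 0.735, limma adjusted p = 0.0864) or NASH-CH (log2 1.935, SE 0.739, limma adjusted p = 0.0793). Over the 18 rats, r with Nr1d1 was 0.836 for Thrb and 0.828 for Klf9, and 0.726 and 0.731 for deviations from the group means. For Serpina7 and Slc16a10 it was 0.675 and 0.64, and 0.395 and 0.3 for deviations. For Ttr, Dio1 and Thra it was −0.497, −0.332 and 0.376, and −0.243, −0.181 and 0.385 for deviations. The part of Nr1d1 in these levels was not tested. Without control rats 2 and 6, a setting chosen after their Nr1d1 was seen, the log2 difference from control in NASH was 0.81 (SE 0.170) for Thrb and 1.21 (SE 0.213) for Klf9. These 2 rats were the highest controls for both genes, so leaving them out had to raise both differences. Nothing about Nr1d1 is read from these values.

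**Figure D4:**
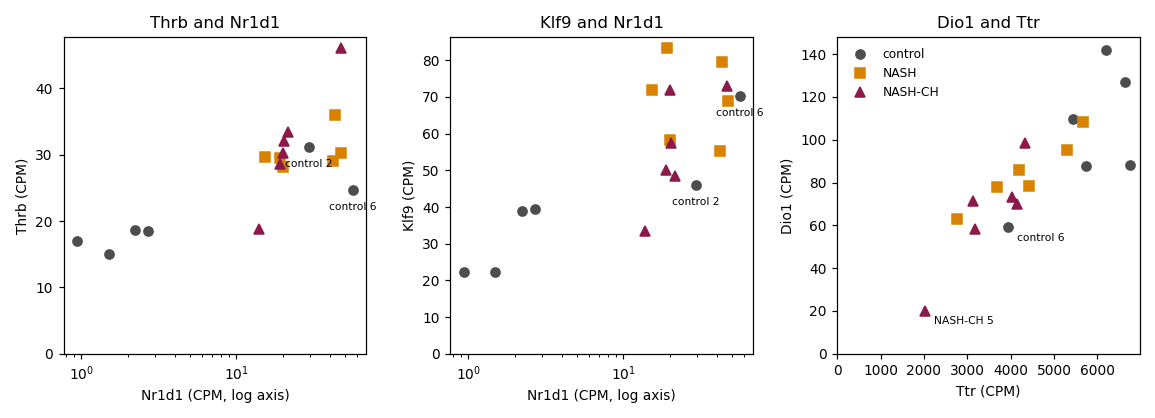
CPM of Thrb (left) and Klf9 (middle) against CPM of Nr1d1 (log axis), and of Dio1 against Ttr (right, linear axes), 1 point per rat by group. Control rats 2 and 6, at 29.4 and 56.3 CPM of Nr1d1, sit among the diseased rats, and NASH-CH rat 5 is lowest for both Dio1 (20.1 CPM) and Ttr (2025 CPM).

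Related genes were counted from 10 lists chosen by function, 7 of the thyroid hormone pathway and 3 of the relatives and other inducers of Klf9 and Serpina7 (Krüppel-like factors, glucocorticoid-induced genes and clade A serpins). Of 120 genes, 95 outside the 7 were tested, 12 were too low to test, 10 had no row and are not analysed here, and 3 had several rows and were left out. Between NASH and control, 3 of the 95 rose and 4 fell (7.37%, against 3.12% of all genes). Between NASH-CH and control, 10 rose and 6 fell (16.8%, against 17.0%), and between NASH-CH and NASH 1 rose and 2 fell (3.16%, against 4.20%). The median log2 difference of the 95 was 0.103 and 0.0658 in the comparisons with control. The counts by list below stand beside the shares of all genes called higher and lower. These were 1.58% and 1.54% in NASH, 8.38% and 8.60% in NASH-CH, and 1.81% and 2.39% in NASH-CH against NASH. Calls were kept in every fit that left out 1 rat for 2 of the 7 genes in NASH (Me1 and Selenok, the latter not called with library size only), for 9 of the 15 named below in NASH-CH and for 3 of 3 in NASH-CH against NASH.

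Among the plasma carriers and their partners, 1 of 3 tested genes changed in NASH-CH and 0 in NASH (limma, 1 of 3 at an unadjusted p under 0.05). Alb, which carries thyroid hormones at low affinity, fell in NASH-CH by 0.61 on the log2 scale (SE 0.185, limma adjusted p = 0.0304). Its NASH value was −0.51 (SE 0.182, limma adjusted p = 0.117). Rbp4, the partner of transthyretin, stood at 0.02 and −0.28 and Serpina6, the binding globulin for corticosteroids, at −0.08 and −0.14, none of them called.

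Of 10 transporters tested, 1 fell in each comparison and 0 rose. Slc17a4, a thyroid hormone transporter of the phosphate transporter family, fell in NASH from 22.2 ± 2.38 to 12.8 ± 3.91 CPM, all 6 NASH rats below all controls (log2 −0.85, SE 0.228, limma adjusted p = 0.0493). That call was kept in 5 of 18 fits without 1 rat. Slco1a1, an organic anion transporter of hepatocytes, fell in NASH-CH from 240.5 ± 30.3 to 160.2 ± 48.6 CPM, again with no overlap (log2 −0.63, SE 0.162, limma adjusted p = 0.0131). Slco1b2 was lower in NASH-CH than in NASH (454.8 ± 69.7 against 669.0 ± 76.4 CPM, log2 −0.56, SE 0.126, limma adjusted p = 0.0145).

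Of the other deiodinases, Dio2, which also makes T3, had 0 counts in all control and NASH rats and 0 to 5 in NASH-CH rats. Dio3, which inactivates the hormones, was low, with 2 to 24 counts in control, 1 to 26 in NASH and 15 to 81 in the deeper NASH-CH libraries (log2 1.69, SE 0.665, limma adjusted p = 0.0893). None of the 4 tested conjugating enzymes, which prepare thyroid hormones for excretion, was called in NASH or NASH-CH by limma, with 1 and 3 at an unadjusted p under 0.05. The list held 13 such genes. Ugt1a5 was the only Ugt1a gene tested, since the other listed Ugt1a genes had no row, so most of this step was not examined. Dio1 is a selenoprotein, and of 22 genes of selenoproteins and their synthesis 1 fell in NASH, while 2 rose and 2 fell in NASH-CH. These shares, 4.55% and 18.2%, were near the 3.12% and 17.0% of all genes called. Gpx3, the plasma glutathione peroxidase, rose from 3.29 ± 0.790 CPM in control to 13.5 ± 5.84 in NASH-CH, with no overlap (log2 1.96, SE 0.289, limma adjusted p = 0.000163), and was also above NASH (log2 1.19, SE 0.249, limma adjusted p = 0.0084). Gpx4, which reduces lipid peroxides, fell in NASH-CH (log2 −0.61, SE 0.123, limma adjusted p = 0.00263). Selenok, of the endoplasmic reticulum, fell in both, with all 12 diseased rats below all controls (log2 −0.58 and −0.66, SE 0.112 and 0.107, limma adjusted p = 0.011 and 0.000437). The rise of Selenon in NASH-CH (log2 0.49, SE 0.164, limma adjusted p = 0.0495) was kept in 3 of 18 fits without 1 rat.

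Of 17 receptor partners and coregulators, 2 rose in NASH and 6 in NASH-CH, and 0 fell, beside 1.58% and 8.38% of all genes called higher. Ncoa1, a coactivator of the p160 family, rose in both groups, from 18.1 ± 3.86 CPM in control to 26.6 ± 2.96 and 26.4 ± 2.44 (log2 0.57 and 0.56, SE 0.121 and 0.123, limma adjusted p = 0.0201 and 0.00475). Ep300, a histone acetyltransferase, also rose in both (log2 0.77 and 0.63, SE 0.201 and 0.194, limma adjusted p = 0.0445 and 0.0325). The Ep300 call in NASH was kept in 5 of 18 fits without 1 rat. Tbl1x, part of the corepressor complex, and Med1, the Mediator subunit that binds nuclear receptors, rose in NASH-CH with no overlap with control (log2 0.47 and 0.44, SE 0.087 and 0.11, limma adjusted p = 0.00132 and 0.0118). Ncor1, the main corepressor of these receptors, rose in NASH-CH by 0.25 on the log2 scale (SE 0.0824, limma adjusted p = 0.0415), kept in 8 of 18, and the 6th gene was Crebbp. Rxra, the retinoid X receptor of liver, had log2 values of 0.22 and 0.22 (limma adjusted p = 0.465 and 0.395). The genes that rose thus included coactivators (Ncoa1, Ep300, Med1 and Crebbp) and corepressor components (Ncor1 and Tbl1x).

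Of 12 liver genes known to be induced by T3, 2 fell in NASH (16.7%) and 1 in NASH-CH (8.33%), and 0 rose. Of all genes, 1.54% and 8.60% were called lower, so the NASH-CH share was near that of all genes. Me1, malic enzyme, a textbook target of T3, fell from 28.7 ± 11.2 CPM in control to 9.01 ± 2.86 in NASH and 12.5 ± 3.76 in NASH-CH (log2 −1.60 and −1.11, SE 0.307 and 0.287, limma adjusted p = 0.011 and 0.014). Acaca, which makes malonyl-CoA, fell in NASH (log2 −1.09, SE 0.28, limma adjusted p = 0.0408), a call kept in 6 of 18 fits without 1 rat. Thrsp, which marks T3 and carbohydrate response, had log2 values of −0.90 (SE 0.521) and −0.67 (SE 0.541) and Fasn, fatty acid synthase, −2.08 (SE 0.674) in NASH, and neither passed the test. Control rat 6 was the lowest control for Me1, Acaca, Thrsp and Fasn, with 10.1 CPM of Me1 against 25.6 to 42.4 in the others. In fits without 1 rat, the Me1 difference ranged from −1.88 to −1.44 in NASH and from −1.39 to −0.974 in NASH-CH. Other genes of the list lay above 0 in NASH without passing the test, among them Pck1, of gluconeogenesis (log2 0.35, SE 0.121, limma adjusted p = 0.111), and Cpt1a, of mitochondrial fatty acid oxidation (log2 1.02, SE 0.374, limma adjusted p = 0.125), named after its value was seen.

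Of the other Krüppel-like factors, 1 of 10 rose in each comparison with control. That gene was Klf12 (log2 0.93 and 0.72, SE 0.216 and 0.217, limma adjusted p = 0.0275 and 0.0291), and all 6 NASH rats lay above all controls. Klf9 also responds to glucocorticoids, and of 9 tested glucocorticoid-induced genes 0 were called in NASH (limma, 4 at an unadjusted p under 0.05) and 1 rose in NASH-CH. This was Per1, a clock gene (log2 0.83, SE 0.23, limma adjusted p = 0.0194). Tsc22d3, which encodes GILZ, had log2 values of 0.44 and 0.14 (limma adjusted p = 0.274 and 0.723). In NASH, Tdo2 (log2 0.84, SE 0.247, limma adjusted p = 0.0668) and Zbtb16 (log2 0.76, SE 0.25, limma adjusted p = 0.0943) were above 0 without a call. Of the 9 glucocorticoid-induced genes, 8 lay above 0 in each comparison with control. Their median log2 difference was 0.402 in NASH and 0.373 in NASH-CH, against 0.0072 and 0.0127 over all genes. Other lists lay to the same side. Of the 10 other Krüppel-like factors, 10 lay above 0 in NASH and 7 in NASH-CH, with medians of 0.55 and 0.398. Of the 17 coregulators, 14 lay above 0 in each comparison with control. A part of glucocorticoids in the Klf9 level was not tested. Among 8 other clade A serpins, the family of Serpina7, 0 were called in NASH (limma, 1 at an unadjusted p under 0.05) and 1 fell in NASH-CH. Serpina3c fell from 6188 ± 945 CPM in control to 2906 ± 531 in NASH-CH (log2 −1.10, SE 0.132, limma adjusted p = 1.59e-05) and was lower than in NASH as well (log2 −0.71, SE 0.132, limma adjusted p = 0.00291). No other tested member of that family was called higher where Serpina7 was.

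**Figure D5:**
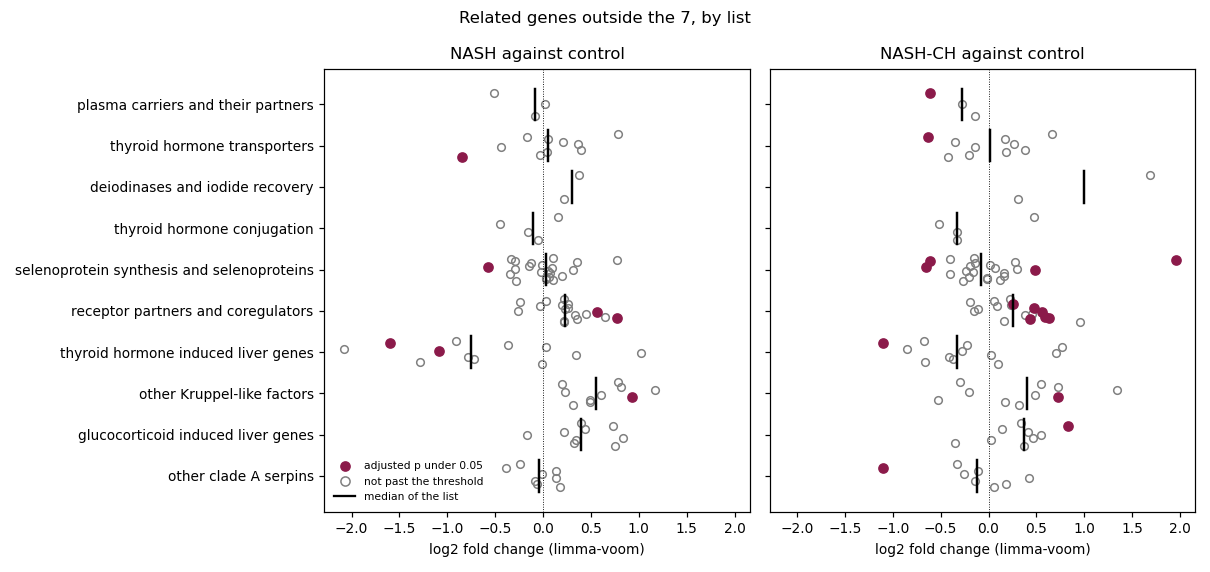
Fitted log2 fold change (limma-voom, horizontal axes) of each tested related gene by functional list for NASH and NASH-CH against control, 1 point per gene, filled where the adjusted p was under 0.05, with a bar at the list median. The medians of the T3-induced genes lie at −0.754 and −0.325 and those of the coregulators at 0.235 and 0.253.

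For each of the 7 genes, the genes with the most similar log2 CPM over the 18 rats were named by Pearson r, given here as a description with no test. Genes with a provisional symbol (such as LOC, RGD or AABR names) were left out of this ranking. Serpina7 was most like Nedd4 (r = 0.951, and 0.762 for deviations from the group means), then Rgs5 (0.927 and 0.422) and Gstm3 (0.923 and 0.694). Ttr was most like Vkorc1, Pemt and Macrod1 (r = 0.946, 0.929 and 0.924), and Dio1 was most like Akr7a2, Hsd3b5 and Stard10 (0.938, 0.931 and 0.913). Slc16a10 was most like Cyp2e1 (0.893), Abhd15 (0.884) and Casp6 (0.882). Thrb was most like Epas1, Sec16a and the coactivator gene Ncoa2 (0.953, 0.947 and 0.946), each above 0.9 for deviations too. Klf9 was most like 1 of the 2 rows of the glucocorticoid receptor gene Nr3c1 (0.928, and 0.899 for deviations), then Zcchc2 and Arhgap31 (0.924 and 0.912). Thra had weaker likenesses, with Ror1 at 0.805, Jade3 at 0.761 and Zfp871 at 0.73. The names depended on the measure. Ranked by Spearman rho, only Nedd4, Vkorc1, Akr7a2, Sec16a and the Nr3c1 row stayed among the 3 genes most like their member. None of the genes named for Slc16a10 or Thra did. All of these values share the same 18 libraries and their depth.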

How the data were processed

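Per the labels and the study's methods, the authors sequenced liver RNA of 18 rats (TruSeq), trimmed reads, aligned them to Rnor_6.0 with STAR and estimated gene counts with RSEM on the Ensembl release 95 annotation. The submitters' processing notes also name FastQC and Trim Galore. They deposited 1 table per rat of RSEM expected counts, not scaled for library size or gene length. The labels and the methods name different RNA extraction kits. Reads that fit several genes are shared out by RSEM, which can give fractions.

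Expected counts were rounded, filtered with filterByExpr (12904 of 32623 genes kept), scaled by TMM (edgeR 4.0.16) and fitted with limma-voom (limma 3.58.1, R 4.3.3), 18 rats in 1 fit with a mean per group, adjusted by Benjamini-Hochberg over all tested genes at 0.05. Likeness used log2 CPM with a prior count of 2. Genes and lists were chosen with earlier results of these data known, so calls among the 7 genes are counted beside those of all genes and support nothing. Named related genes were the defining genes of each list (Alb, Dio2, Dio3, Thrsp, Me1, Rxra, Ncor1, Tsc22d3), up to 4 per list with the smallest p in any comparison, and 3 genes most like each of the 7. Results for 1 listed gene are not reported here, though it stays in the counts of its list. Tried as alternatives were DESeq2 1.42.0, the quasi-likelihood test of edgeR, other scalings and filters, pairs of groups alone, sample weights, a replicate block and each rat left out. The fit was also run on simulated counts with genes changed in NASH only, which differs from these livers, and no support for the calls is taken from it. No 2 libraries of the same group agreed within sampling noise.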

Additional observations from a re-analysis of the deposited data

Results flagged for a closer look

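In 150 sets of 6 rats, 9 held a rat far from its group (a gap to the nearest rat above Dixon's critical value), which chance alone gives in about 1 of 20 sets. Control rat 6 had 19.29 CPM of Slc16a10 against 6.108 to 9.237 in the other controls. NASH rat 5 had 35.95 CPM of Thrb (others 28.21 to 30.25), and NASH rat 1 a Thra share of 22.7% (others 17 to 18.8%). NASH-CH rat 6 was high for Ep300 (11.26 CPM, others 6.384 to 7.325) and Nr1d1 (47 CPM, others 13.9 to 21.5). NASH-CH rat 3 had 3920 CPM of Serpina3c (others 2342 to 2851). Control rat 4 had 0.9919 CPM of Dio3 (others 0.09917 to 0.2699), control rat 5 had 301.6 CPM of Slco1a1 (others 223.1 to 236.6) and NASH rat 1 had 618.2 CPM of Serpina6 (others 341.6 to 391.7).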

How the results depend on the processing

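Serpina7, Slc16a10 and, in NASH-CH, Ttr were called in all 18 fits without 1 rat, which supports nothing for genes chosen from these livers, and Serpina7 could not be fitted with at least 10 counts in every rat, since control rat 1 had 9. The 3 calls among the 7 genes in NASH became 2 to 4 without 1 rat and 5 without control rat 6 and NASH-CH rat 5, a pair chosen after seeing the data. In NASH-CH 4 calls became 3 to 6, and in NASH-CH against NASH 0 stayed 0.

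The 403 genes called in NASH were 652 with edgeR, 1228 with DESeq2, 865 with library size only (785 higher and 80 lower, against 204 and 199), 268 with no filter, 644 with 2 groups alone, 1509 with sample weights, 1413 without control rat 6 and NASH-CH rat 5, 1502 without control rats 2 and 6, and 128 (without control rat 3) to 982 (without control rat 6) without 1 rat. The 7 related genes were 19 with DESeq2, 16 with library size only, 4 with no filter, 12 with 2 groups alone, 23 with sample weights, 21 and 19 without those pairs of rats, and 2 to 13 without 1 rat. In NASH-CH 2192 genes became 5495 with no filter, 1408 with 2 groups alone and 1519 to 2409 without 1 rat. With library size only they were 2781 higher and 489 lower, against 1082 and 1110. The 16 related genes became 31 with library size only, 10 with 2 groups alone and 9 (without control rat 5) to 20 (without control rat 6). In NASH-CH against NASH 542 genes became 949 with DESeq2, 2649 with no filter, 349 with 2 groups alone and 346 to 591 without 1 rat, and with library size only 119 were higher and 248 lower, against 234 and 308. The 3 related genes became 7 with DESeq2 and with no filter, 5 with sample weights and 3 to 5 without 1 rat. The cause was not tested. Of single calls, that of Alb in NASH-CH was lost without control rat 1, control rat 5 or NASH-CH rat 6, and that of Per1 without control rat 5. The Ncoa1 call in NASH was lost without control rat 3 or 4. Without control rat 1, 3, 4 or 5 the calls of Klf12 in both groups and of Ep300 in both groups were lost. The Thrb call in NASH-CH was kept in 11 of 18 fits and the Klf9 call in NASH in 5 of 18, while Dio1 in NASH-CH gained a call in 2 of 18.

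Among related genes, signs turned for differences without a call. With library size only, NASH log2 differences were 0.144 for Serpina6, 0.06132 for Slco1a1, 0.181 for Sult1c3, 0.06778 for Sult1b1 and 0.1605 for Serpina10, and NASH-CH ones 0.1164 for Serpina6 and 0.1525 for Serpina3m. Pck1 in NASH-CH was −0.004765 with DESeq2 and −0.01274 without control rats 2 and 6, which gave −0.05523 for Rbp4 in NASH and −0.0685 for Tsc22d3 in NASH-CH. Without 1 rat, Pck1 ranged from −0.06251 to 0.07722, Rbp4 from −0.02899 to 0.0754, Sult1c3 from −0.09357 to 0.005773 and Serpina3m from −0.1893 to 0.02148.

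Rats of the same number shared only the number (mean r of their deviations 0.0516, 0.0732 and 0.0154 in the 3 comparisons). With the number as a replicate block, 444, 2095 and 540 genes were called, 7, 15 and 3 of them related genes, and the calls among the 7 genes stayed 3, 4 and 0.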
